A study of Mus musculus with 18 samples.

Results

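The cytosolic ribosomal protein genes encode the protein part of the ribosome that translates nuclear mRNA. They were chosen by name alone, as rows whose symbol is Rpl or Rps followed by a number with at most one further letter a or x, together with Rplp0, Rplp1, Rplp2 and Rpsa. The rule found 76 genes among the 34850 with a value, of which 30 belong to the small and 46 to the large subunit. No measured value entered the choice. Under the name pattern 11 relatives are not members, among them Fau, Rps3a1 and the tissue-restricted copies Rpl39l and Rpl10l.

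The study asked how cyclosporin A, an inhibitor of the phosphatase calcineurin, and FGF signalling support mouse primordial germ cell-like cells (PGCLC) in culture. RNA from 18 samples in 9 groups of 2 was read with SC3-seq, a 3′-end RNA-seq method, from 1 ng per library. Embryonic stem cells (ESC), epiblast-like cells (EpiLC, induced from ESC for 2 days) and day 4 PGCLC (d4 PGCLC) were C57BL/6 carrying the reporters Blimp1-mVenus and Stella-ECFP. ESC and EpiLC were unsorted, and d4 PGCLC were sorted for mVenus. The groups named d4c7 are day 4 PGCLC grown for 7 further days on m220-5 feeder cells with FR10 (forskolin and rolipram, each at 10 µM, which raise cyclic AMP), CsA (cyclosporin A), FGF10 or FGF2. They are labelled B6D2F1 with the same reporters and were sorted for mVenus. The groups named E9.5c5 are germ cells from E9.5 embryos of B6D2F1 x C57BL/6 with a Stella-EGFP reporter, grown for 5 days with FR10 or CsA and sorted for EGFP. Whether the CsA and FGF media also held forskolin and rolipram is not stated in the labels, nor is a dose for the FGF cultures. Strain and culture change together between d4 PGCLC and d4c7. Strain, reporter and culture change together between d4c7 and E9.5c5. Their parts in a difference cannot be told apart. The extract protocol calls the cultured replicates biological, and for ESC, EpiLC and d4 PGCLC nothing says that the samples came from separate cultures. The p-values there rest on a spread between libraries estimated over all 18, and not on a known spread between separate cultures of these cells.

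Each ribosome carries about one copy of nearly every ribosomal protein, and the genes are known to be transcribed and translated together. Their mRNAs begin with a run of pyrimidines, the 5′ TOP motif, through which the mTOR pathway and the binding protein Larp1 control translation and storage of the message. The mRNAs are short and among the most abundant of a dividing cell, so their summed reads form a large part of any library. Some ribosomal proteins also act outside the ribosome: free Rpl5 and Rpl11 bind Mdm2, the ligase that degrades p53. In early germ cells, which leave the epiblast, pause and then proliferate, growth and protein synthesis change with the stage.

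The values are RPM, reads scaled to a common library total, without a length correction. They are used here to compare one gene between libraries and not the number of mRNA molecules of different genes. The step between low values puts the depth at 2129368 to 7547667 reads, and 3 reads equal 0.397 to 1.41 RPM. Every member lay far above that floor, with a lowest value of 187 RPM. Marker sums followed the labels: naive pluripotency markers summed to 2000.2 to 2048 RPM in ESC and 59.97 to 65.9 RPM in EpiLC, formative markers to 2365 to 2460 RPM in EpiLC, and germ cell markers to 1614 to 4503 RPM in the 14 sorted libraries. Of 13 fibroblast and feeder markers, 2 to 5 were listed at 0 in both libraries of each sorted group. Of the 13, 6 were at 0 in both ESC libraries. Their sum was 1535 to 1592 RPM in ESC, 270 to 282 RPM in EpiLC, 716 to 758 RPM in d4 PGCLC, 811 to 898 RPM in d4c7 FR10, 635 to 750 RPM in d4c7 CsA, 554 to 664 RPM in d4c7 FGF10, 250 to 540 RPM in d4c7 FGF2, 367 to 532 RPM in E9.5c5 FR10 and 211 to 780 RPM in E9.5c5 CsA, and its part in the results was not tested. In ESC most of the fibroblast and feeder sum came from Fn1 (1136 and 1118 RPM) and Sparc (449 and 412 RPM). Both were lower in d4c7 FR10 (Fn1 608 and 548 RPM, Sparc 87.9 and 89.1 RPM). Dcn and Col3a1 went the other way, with 0 in ESC and 31.8 to 76.7 RPM in d4c7 FR10. In d4c7 CsA they had 10.6 to 47.5 RPM. Blood markers summed to at most 1.73 RPM. Replicates lay furthest apart in 3 groups, by the median absolute log2 difference over members. It was 0.58 for E9.5c5 CsA, 0.29 for E9.5c5 FR10 and 0.28 for d4c7 FGF2, against 0.07 to 0.25 for the other 6 groups. The value of 0.25 was that of d4 PGCLC. Its largest difference (1.51) exceeded those of E9.5c5 FR10 (1.21) and d4c7 FGF2 (0.98). Such a difference cannot say which replicate is the odd one. Replicate 2 of the 3 groups had the 3 highest family shares, and these 3 libraries are those said below to have stood apart. Results that change without them are given both ways. Leaving them out leaves single libraries in their groups, which then add nothing to the shared spread.

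Promoter sequences show what the family shares that the name rule did not use. RefSeq start sites (GRCm38.p6) were matched for 56 of the 76 members. In the 60 bases from 35 before to 25 after the start, the pyrimidine core CTTTC stood on the gene's strand in 35.7% of matched members and in 9.30% of 27025 genes, and on either strand in 41.1% and 16.9%. Either CTTTC or CTTCC on either strand was in 71.4% of members and 39.8% of all genes. In the 300 bases from 250 before to 50 after the start, CCGGAAG, the core that Ets-family factors such as Gabpa bind, was on either strand in 41.1% of members and 9.93% of all genes, ATGGCGG (within the Yy1 motif) in 16.1% and 4.69%, and TATAAA in 10.7% and 15.7%. The motifs can share bases with one another, so the percentages are not of separate stretches of sequence. For example, CTTTC and CTTCC can share bases, and the reverse complement of CCGGAAG holds CTTCC. Windows of 8 members whose levels differ in the results are shown 5′ to 3′ on the gene's strand, with every CTTTC or CTTCC in capitals. Rps12, Rpl39 and Rps27 fell from EpiLC to d4 PGCLC, Rps23 and Rpl15 are among those higher after culture, Rpl4 and Rpl7a stand high within the family in d4 PGCLC, and Rps4x is highest in the embryo-derived cultures.
Rps12, chr10:23787185-23787244, minus strand: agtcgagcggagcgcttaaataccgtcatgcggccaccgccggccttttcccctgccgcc
Rpl39, chrX:37085198-37085257, minus strand: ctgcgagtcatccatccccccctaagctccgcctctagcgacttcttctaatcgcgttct
Rps27, chr3:90213624-90213683, minus strand: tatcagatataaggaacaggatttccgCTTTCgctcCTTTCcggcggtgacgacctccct
Rps23, chr13:90923087-90923146, plus strand: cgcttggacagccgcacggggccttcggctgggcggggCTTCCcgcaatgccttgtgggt
Rpl15, chr14:18270962-18271021, minus strand: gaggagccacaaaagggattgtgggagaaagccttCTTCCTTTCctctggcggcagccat
Rpl4, chr9:64173352-64173411, plus strand: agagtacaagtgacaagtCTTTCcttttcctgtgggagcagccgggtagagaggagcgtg
Rpl7a, chr2:26910772-26910831, plus strand: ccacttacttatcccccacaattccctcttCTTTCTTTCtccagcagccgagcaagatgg
Rps4x, chrX:102189367-102189426, minus strand: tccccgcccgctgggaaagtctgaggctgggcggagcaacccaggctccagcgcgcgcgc
The cores stood both in members that were low and in members that were high in d4 PGCLC. A match is a description of these letters and not a binding site, and a window without one says only that these letters are absent from it.

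The family took 21.6% to 40.01% of each library, and the share was lowest in d4 PGCLC. It was 27.9% and 28.8% in ESC, 28.8% and 29.8% in EpiLC, and 22.5% and 21.6% in d4 PGCLC. After 7 days of culture it was 26.6% and 26.8% with FR10, 33.4% and 33.3% with CsA, 28.8% and 27.7% with FGF10, and 32.7% and 36.6% with FGF2. In cultured E9.5 germ cells it was 31.4% and 34.0% with FR10 and 30.3% and 40.01% with CsA. Ordered by group mean, the share ran from d4 PGCLC (22.05%) over d4c7 FR10 (26.7%), d4c7 FGF10 (28.2%), ESC (28.3%), EpiLC (29.3%), E9.5c5 FR10 (32.7%), d4c7 CsA (33.4%) and d4c7 FGF2 (34.7%) to E9.5c5 CsA (35.2%). The range of d4c7 FGF10 overlapped those of ESC and EpiLC, and the last 4 groups overlapped one another. Both d4 PGCLC libraries lay below all 16 others, and both d4c7 FR10 libraries came next. With 2 libraries a group an exact test of a share cannot go below a two-sided p of 0.333, so the shares are given as values.

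**Figure D1:**
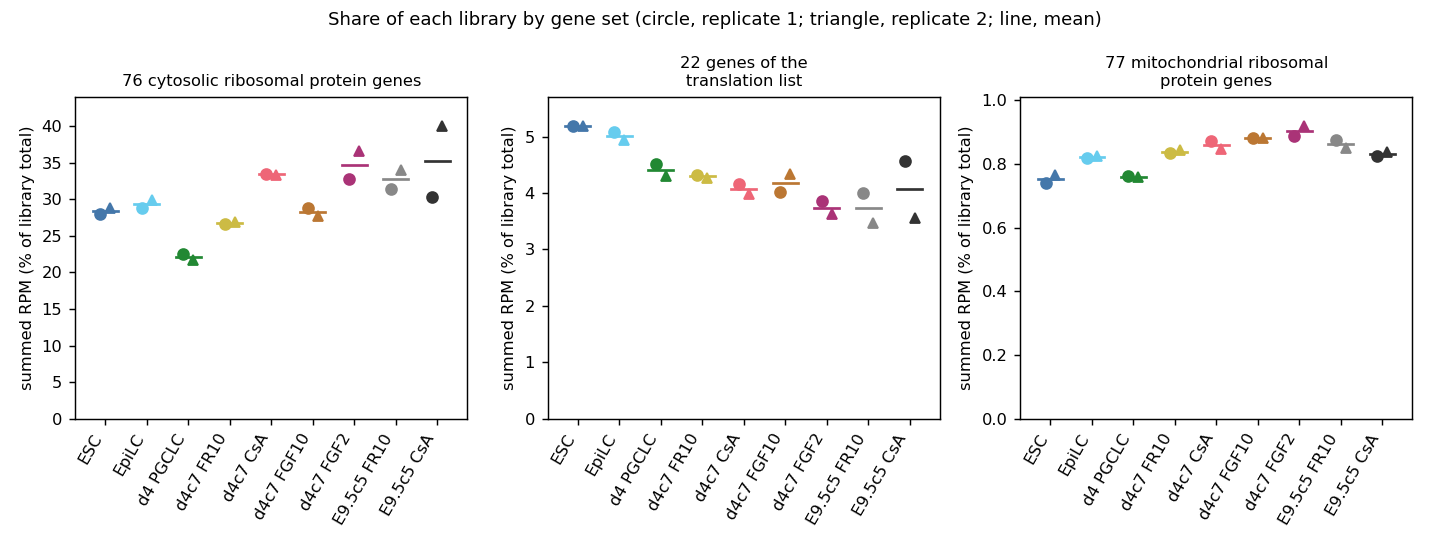
Summed RPM as a percent of the library total (y axis) in each of the 9 groups (x axis), for the 76 cytosolic ribosomal protein genes, 22 translation genes with 5′ TOP messages (Fau, which encodes Rps30, among them), and 77 mitochondrial ribosomal protein genes. Circles and triangles are replicates 1 and 2 and lines are group means; the cytosolic family runs from 21.6% in a d4 PGCLC library to 40.01% in an E9.5c5 CsA library, while the mitochondrial family stays below 1%.

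Neither of 2 related gene sets had this order of group means. The 77 mitochondrial ribosomal protein genes, whose products build the separate ribosome of the mitochondrion, had group means of 0.752% (ESC) to 0.903% (d4c7 FGF2), with 0.759% ± 0.0015 (SD, n = 2) in d4 PGCLC. The 22 genes of a 5′ TOP list, such as the elongation factor genes Eef1a1 and Eef2, were highest in ESC with 5.19% ± 0.0054 and lowest in d4c7 FGF2 and E9.5c5 FR10 with 3.74% in each. That list is not separate from the ribosome: it holds Fau, the fusion gene for Rps30, and other ribosomal genes outside the name rule. Between d4c7 FR10 and d4c7 CsA the translation list went from 4.30% ± 0.034 to 4.07% ± 0.12 while the ribosomal proteins went from 26.7% ± 0.18 to 33.4% ± 0.073. The small-subunit genes had 0.638 to 0.756 times the reads of the large-subunit genes across the 18 libraries. In bulk RNA, fewer cells of a type and less RNA per cell cannot be told apart, and a share of the library can change because other genes do.

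Within the family the reads were spread unevenly. Rplp1, a P-stalk protein that recruits elongation factors, had the most, with a mean of 13510 RPM over all libraries, followed by Rps12 (10257 RPM), Rpl13 (9436 RPM) and Rpl23a (8001 RPM). The 4 lowest were Rps15 (340 RPM), Rpl38 (377 RPM), Rps28 (426 RPM) and Rps29 (502 RPM). Between 61 and 70 members were among the 100 genes with most reads in each library, and 6 to 10 of the first 10 genes were members. The 10 highest members held 25.8% to 30.5% of the family's reads. On chromosome 7 lie 14 members and on the X 4, and 59 of the 76 have at least one named pseudogene in the GENCODE M21 annotation. Reads shared with such copies could be assigned either way, and how the authors counted them is not stated.

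**Figure D2:**
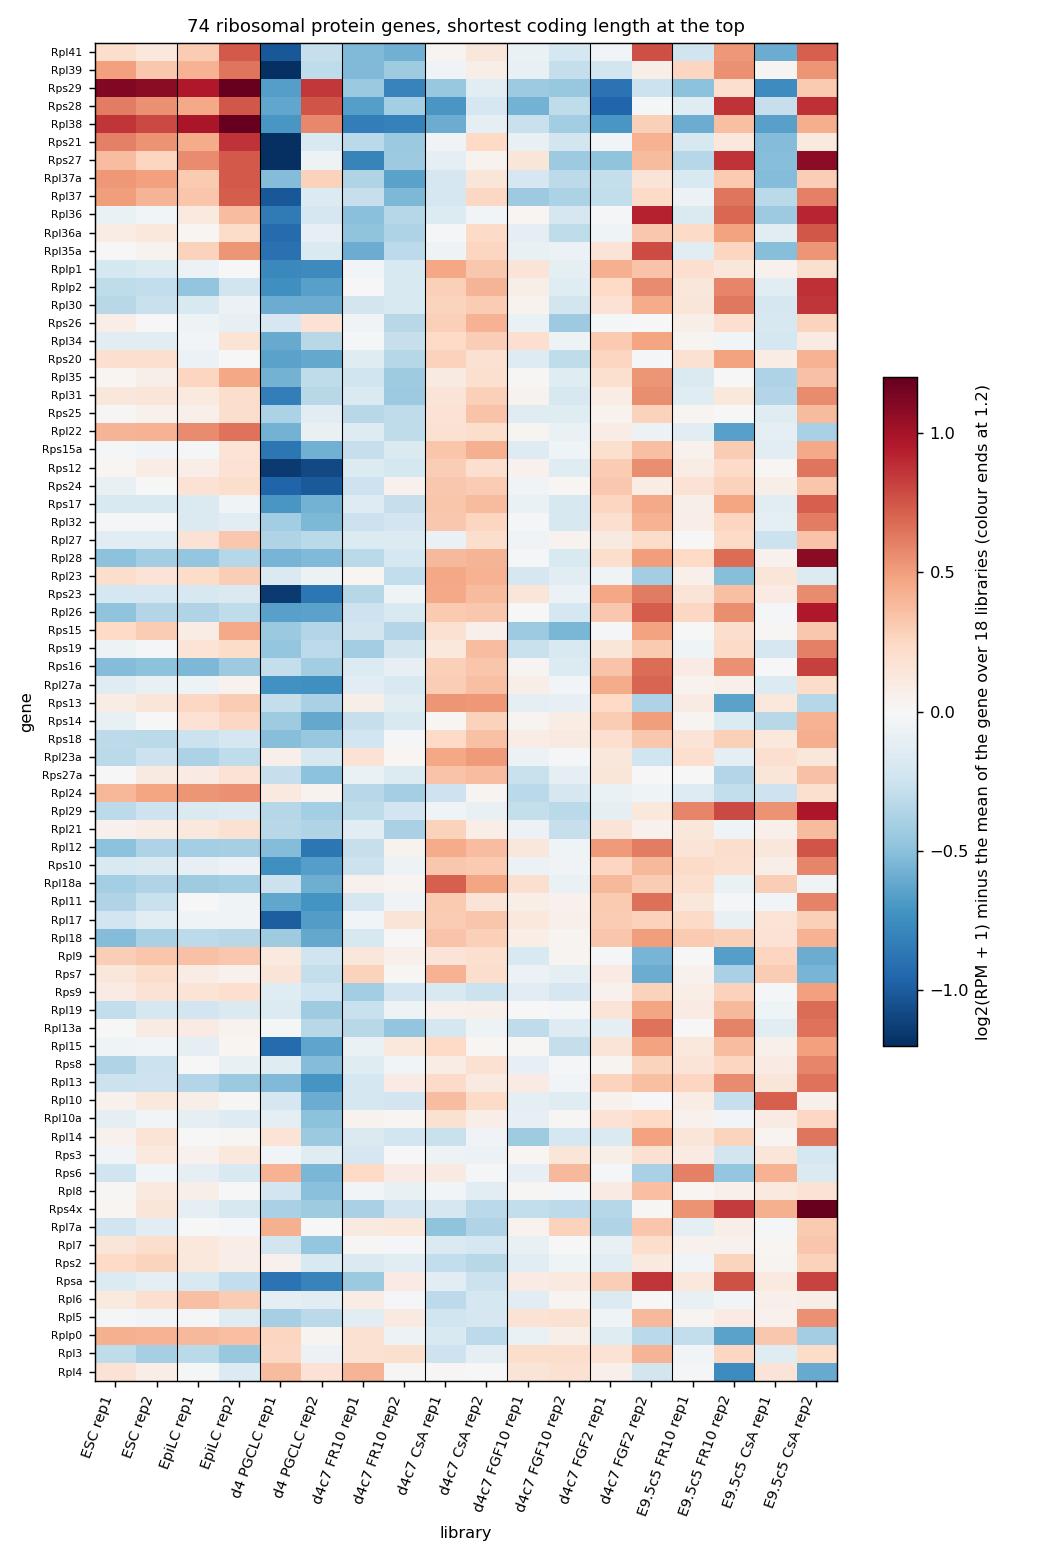
Each cell is the log2(RPM + 1) of one of 74 of the 76 members (rows, shortest coding length at the top) in one of the 18 libraries (columns) minus that gene's mean over all libraries, with red above and blue below the mean. The d4 PGCLC columns are mostly blue, the d4c7 CsA columns are red in most middle rows and pale or blue in several of the shortest and longest genes, and replicate 2 of E9.5c5 CsA is red in most rows.

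Single genes were tested with limma on log2(RPM + 1) in one fit of all 18 libraries, with Benjamini-Hochberg adjustment over the 9561 genes that had 10 RPM in at least 2 libraries. A gene is called when its adjusted p is under 0.05, and folds are on the log2(RPM + 1) scale. All 76 members were among the genes tested.

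From ESC to EpiLC, the step from naive to formative pluripotency, no member was called, while 16% of all genes tested were, 7.09% as higher and 8.86% as lower. Measured against the library's median member, again 0 members were called, with 14.2% of all genes called, 5.42% as higher and 8.76% as lower. With limma-voom on read numbers inferred from the RPM step, 0 members and 19.8% of all genes were called. The median difference (EpiLC minus ESC) was 0.06 over members and 0.01 over all genes. Rpl27, of the large subunit, was at 2753 and 2764 RPM in ESC and 3423 and 3780 RPM in EpiLC, a log2 difference of 0.38 ± 0.18 (SE) with a limma adjusted p of 0.19. Rpl11, also of the large subunit, had 1784 and 1895 RPM in ESC and 2284 and 2225 RPM in EpiLC (0.29 ± 0.19, limma adjusted p = 0.36). In both genes both EpiLC libraries lay above both ESC libraries. A fit of these 4 libraries alone, whose replicates agreed closely, called 12 members higher and 3 lower, 19.7% of the members, where the same fit called 33.3% of all genes.

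From EpiLC to d4 PGCLC, the step of germ cell specification, the family fell: 34 members were called lower and 1 higher. Of all genes tested 39.6% were called, 12.1% as lower and 27.5% as higher. The median log2 difference (d4 PGCLC minus EpiLC) was -0.46 over the 76 members and 0.34 over all genes tested. The fall took in 14 of 30 small-subunit and 20 of 46 large-subunit genes, and 62 members were lower in both d4 PGCLC libraries than in both EpiLC libraries, as were 27.1% of all genes. Scaling each library to the median ratio of all genes, which moves the median of all genes from 0.34 to 0.00, gave 53 members lower and 0 higher and turned the split over all genes from 2629 higher and 1155 lower to 1666 and 1786. The count of members was 18 without replicate 1 of EpiLC, 10 without its replicate 2 and 16 without replicate 1 of d4 PGCLC, all lower, with 7.82%, 7.44% and 7.04% of all genes called lower in the same fits. It was 56 without the 3 libraries that stood apart, of which 52 were lower, with 55.5% of all genes called.

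Rps12, a small-subunit protein near the 40S beak, was one of the most abundant members that fell. It had 10408 and 11102 RPM in EpiLC and 4441 and 4629 RPM in d4 PGCLC (log2 difference -1.25 ± 0.19, limma adjusted p = 9.5e-05). Rps24, needed for processing of the 18S rRNA, went from 4760 and 4879 to 2164 and 2100 RPM (-1.18 ± 0.16, limma adjusted p = 2.8e-05). For both genes the d4 PGCLC replicates lay close together and far below EpiLC. Rpl39, among the smallest ribosomal proteins, sits in the exit tunnel; it was at 1480 and 1729 RPM in EpiLC and 396 and 897 RPM in d4 PGCLC (-1.42 ± 0.27, limma adjusted p = 0.00065). Rps21 went from 2144 and 2869 to 642 and 1386 RPM (-1.39 ± 0.29, limma adjusted p = 0.0012). For these short genes the groups did not overlap, but d4 PGCLC replicate 1 lay far below replicate 2. Rps27 (-1.30 ± 0.47) and Rpl38 (-1.26 ± 0.41), the latter known for its role in translating Hox mRNAs, were called lower with limma adjusted p of 0.035 and 0.023. Their differences were -0.71 and -0.62 without d4 PGCLC replicate 1, no longer called (limma adjusted p = 0.36 and 0.34), and neither was called without either EpiLC library (-1.04 to -1.47, limma adjusted p = 0.051 to 0.17).

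Rpl3, which lines the peptidyl transferase centre, was the one member called higher. It had 2061 and 1879 RPM in EpiLC and 3065 and 2448 RPM in d4 PGCLC, a difference of 0.48 ± 0.17 (limma adjusted p = 0.037). The call was lost under median-ratio scaling (0.11, limma adjusted p = 0.73) and without either EpiLC library or d4 PGCLC replicate 1 (0.31 to 0.54). Measured against the family, by subtracting each library's median member before the same fit, 5 members stood higher in d4 PGCLC than in EpiLC, among them Rpl3 (0.81 ± 0.16), Rpl4 (0.71 ± 0.28), Rpl23a (0.61 ± 0.18) and Rpl7a (0.56 ± 0.18). On this scale 10 stood lower, led by Rpl39 (-1.09 ± 0.29), Rps21 (-1.06 ± 0.29), Rps12 (-0.91 ± 0.16) and Rps24 (-0.84 ± 0.15). Of all genes 45.9% were called, 38.3% as higher and 7.65% as lower.

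Against ESC, 20 members were called lower in d4 PGCLC and 0 higher, where 34.5% of all genes were called, 24.3% as higher and 10.2% as lower. Relative to the family 4 members were higher and 8 lower, with 40.4% of all genes called, 32.9% as higher and 7.42% as lower. This comparison shares its d4 PGCLC libraries with the one before. Rps21 (-1.31 ± 0.29), Rpl39 (-1.30 ± 0.27), Rps12 (-1.18 ± 0.19), Rpl37 (-1.05 ± 0.32), Rps24 (-0.94 ± 0.16) and Rps20 (-0.83 ± 0.17) led, with limma adjusted p of 0.00019 to 0.018. Rps20 had 6534 and 6523 RPM in ESC and 3646 and 3713 RPM in d4 PGCLC with close replicates in both groups. Rpl37 and Rps21 were not called without d4 PGCLC replicate 1 (-0.62 and -0.76, limma adjusted p = 0.24 and 0.061), and Rpl37 not without either ESC library (limma adjusted p = 0.070 to 0.091). The count was 7 to 10 without ESC replicate 1, ESC replicate 2 or d4 PGCLC replicate 1, 46 under median-ratio scaling and 53 (50 lower) without the 3 libraries that stood apart. The same fits called 20.8% to 22.6%, 30.2% and 51.1% of all genes.

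Of the 16 members whose human counterparts are mutated in Diamond-Blackfan anaemia, an inherited red cell aplasia, 9 were called lower in d4 PGCLC than in EpiLC, with a median difference of -0.60, and 4 lower than in ESC. Over the whole family the counts were 34 and 20 of 76, and over all genes 12.1% and 10.2% were called lower. Rps19, the first such gene described, was at 3890 and 4028 RPM in EpiLC and 2507 and 2783 RPM in d4 PGCLC and was among the 9. Of the 3 Mdm2-binding members, Rpl11 was called lower (2284 and 2225 against 1487 and 1389 RPM) and Rpl5 (4754 and 4374 against 3687 and 3860 RPM) and Rpl23 were not. Trp53, the gene of p53 itself, was at 13.1 RPM in EpiLC and 427 RPM in d4 PGCLC (4.93 ± 0.32).

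Genes around the ribosome were read from lists of their own, against a median of 0.34 and calls of 27.5% as higher and 12.1% as lower over all genes. Among 31 ribosome biogenesis genes tested, 3 were called higher and 6 lower, with a median of -0.05. Bysl, needed to make the small subunit, went from 138 to 730 RPM (2.40 ± 0.18), and Utp20 rose by 0.90 ± 0.22. Bop1, needed for the large subunit, was lower by a log2 difference of -0.82 ± 0.21, and the nucleolar phosphoprotein gene Ncl by -0.70 ± 0.20. Of 13 RNA polymerase I genes, Taf1c (1.62 ± 0.32) and Ubtf (1.202 ± 0.27), which act at the rRNA gene promoter, were called higher and none lower, with a median of 0.37. Of the 22 genes of the 5′ TOP list, which holds Fau too, Eef1d was called higher and Eif4b and Pabpc4 lower, with a median of -0.17 and 16 of 22 below 0. Among 17 regulators, 7 were called higher and 2 lower, with a median of 0.52: Mtor (1.42 ± 0.20) and Mycn (1.39 ± 0.23) rose and Eif4ebp1, the translational repressor that mTOR inactivates, fell (-1.42 ± 0.19). Of 76 mitochondrial ribosomal protein genes tested, 14 were called higher and 12 lower, with a median of -0.13.

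**Figure D3:**
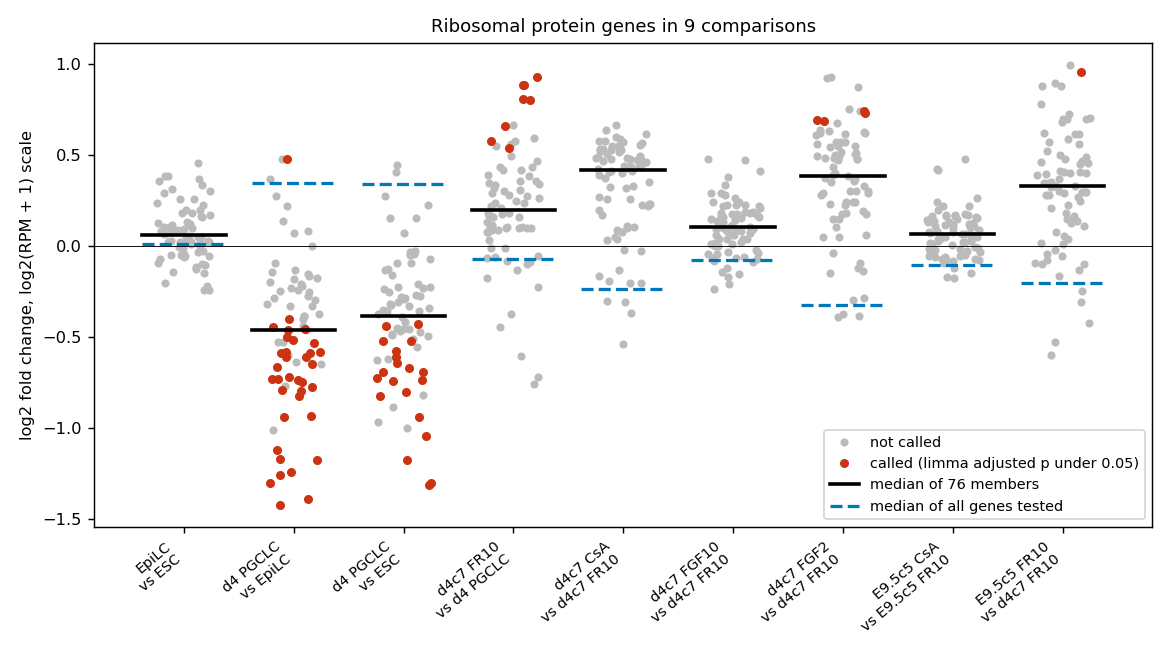
Log2 fold changes of the 76 members (y axis, log2(RPM + 1) scale) in the 9 comparisons (x axis, first group minus second), with called genes in red. Solid lines are the median of the members and dashed lines that of the 9561 genes tested; in d4 PGCLC against EpiLC the former is at -0.46 and the latter at 0.34, and in all 9 comparisons the lines differ.

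After 7 days of culture with FR10 the family share was above that of d4 PGCLC. The test called 8 members higher and 0 lower, where 15.2% of all genes were called, 7.01% as higher and 8.22% as lower. The median difference (d4c7 FR10 minus d4 PGCLC) was 0.20 over members and -0.07 over all genes, and 38 members were higher in both FR10 libraries, as were 29.2% of all genes. Rps12 went from 4441 and 4629 RPM to 8776 and 8480 RPM (0.93 ± 0.19, limma adjusted p = 0.0037). Rps24 went from 2164 and 2100 RPM to 3552 and 4359 RPM (0.88 ± 0.16, limma adjusted p = 0.0013). Both genes were also among those lower in d4 PGCLC than in EpiLC, a comparison that shares the d4 PGCLC libraries. Rpl17, a large-subunit protein at the tunnel exit, went from 1550 and 1932 RPM to 3007 and 3409 RPM (0.89 ± 0.16). Rps23, of the decoding centre, had 2561 and 3107 RPM before and 4471 and 5466 RPM after (0.81 ± 0.19). Rpl15 (0.80 ± 0.19), Rplp1 (0.66 ± 0.16), Rpl27a and Rps10 made up the rest. Rpl39 and Rpl38 were not called: Rpl39 was at 770 and 824 RPM, within the range of d4 PGCLC, and Rpl38 at 187 and 189 RPM, below both d4 PGCLC libraries (205 and 496 RPM). Rps23, Rpl15 and Rplp1 lost their call without d4 PGCLC replicate 1. The count was 4 without that library (3 higher and 1 lower), 5 without d4c7 FR10 replicate 1 and 4 without d4c7 FR10 replicate 2, where 5.99%, 8.63% and 6.29% of all genes were called, and 28 (26 higher) without the 3 libraries that stood apart, with 31% of all genes called.

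Relative to the family, 6 of these 8 were called higher (Rps12, Rpl17, Rps24, Rps23, Rpl15 and Rplp1, by 0.52 to 0.79), and Rpl24, a large-subunit protein at the intersubunit face, was called lower (-0.59 ± 0.15), where 14.2% of all genes were called, 4.81% as higher and 9.38% as lower. Rpl24 had 3926 to 4352 RPM in ESC and EpiLC, 3222 and 3060 RPM in d4 PGCLC and 2367 and 2246 RPM in d4c7 FR10. Among genes around the ribosome, 5 of 31 biogenesis genes were called lower after culture and none higher, led by Bysl (-1.05 ± 0.18), Tcof1 (-0.90 ± 0.21) and Dkc1 (-0.78 ± 0.19). These lists were read from the fit without the family median subtracted, where 7.01% of all genes were called higher and 8.22% lower. Of 17 regulators, 2 were called higher and 4 lower, with a median of -0.05 and 8 of the 17 above 0. Trp53 fell from 427 to 49.5 RPM (-3.11 ± 0.32) and Mycn from 263 to 80.9 RPM (-1.69 ± 0.23).

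A pair of tissue-restricted copies of member genes had large differences at the same step. Rpl39l and Rpl10l are autosomal copies of the X-linked Rpl39 and Rpl10 that are known for expression in male germ cells. Rpl39l had 33.8 and 28.1 RPM in ESC, 27.8 and 26.3 RPM in EpiLC and 3.76 and 5.21 RPM in d4 PGCLC, then 323 and 469 RPM in d4c7 FR10 (log2 difference 6.17 ± 0.52 from d4 PGCLC, limma adjusted p = 1.1e-06). It stayed high with CsA (323 and 509 RPM), FGF10 (452 and 518 RPM) and FGF2 (690 and 598 RPM). In E9.5c5 it was at 379 and 205 RPM with FR10 and at 239 and 40.9 RPM with CsA, where the lower value of each pair is from a library that stood apart. Set against its parent, Rpl39l had 0.581% to 2.16% of the RPM of Rpl39 in ESC, EpiLC and d4 PGCLC and 30.0% to 72.5% in the 8 d4c7 libraries. Rpl10l had 76.6 and 84.0 RPM in ESC, 3.76 and 9.65 RPM in d4 PGCLC and 127 and 100.5 RPM in d4c7 FR10 (3.999 ± 0.75, limma adjusted p = 0.0016), between 0.0823% and 2.80% of Rpl10. The copies and parents are close in sequence, so some reads may have been assigned to the wrong one, and strain changes with culture here. Rps27l, a p53-inducible copy of Rps27, was at 290 and 536 RPM in d4 PGCLC and 1065 and 1209 RPM in d4c7 FR10 (1.52 ± 0.21), while Rps27 had 219 and 502 RPM and 299 and 386 RPM in the same libraries.

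**Figure D4:**
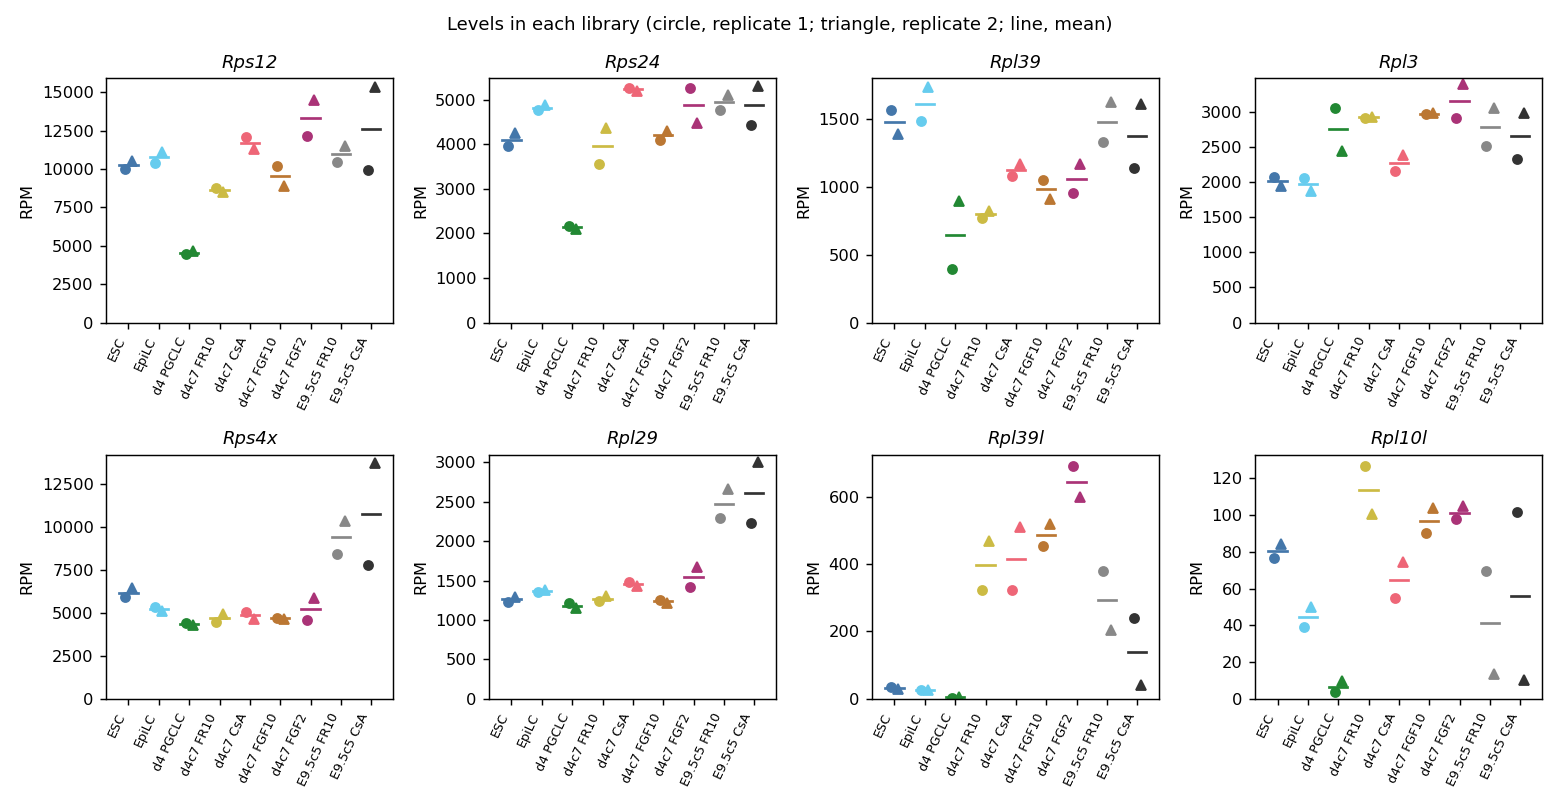
RPM (y axis, from 0) of 6 members and of the copies Rpl39l and Rpl10l in each library of the 9 groups (x axis); circles and triangles are replicates 1 and 2 and lines are means. Rps12 and Rps24 are lowest in d4 PGCLC with replicates on top of each other, Rpl3 is higher there than in ESC and EpiLC, Rps4x and Rpl29 are highest in the 4 E9.5c5 libraries, and Rpl39l and Rpl10l are near 0 in d4 PGCLC.

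Cyclosporin A went with a larger family share in cultured PGCLC, but no single member passed the test. The share was 33.4% and 33.3% with CsA and 26.6% and 26.8% with FR10, a ratio of 1.25. The limma fit called 0 members and 0.0314% of all genes (0.0209% as higher and 0.0105% as lower), and limma-voom called 0 members and 0.0209% of all genes. The median difference (CsA minus FR10) was 0.42 over members and -0.24 over all genes. In 57 members both CsA libraries were above both FR10 libraries and in 8 both were below, against 11.4% and 41.6% of all genes. Rps23 had the smallest p, with 4471 and 5466 RPM in FR10 and 7766 and 7404 RPM in CsA (0.62 ± 0.19, limma adjusted p = 0.18). Rps15a (0.60 ± 0.19) and Rps25 (0.58 ± 0.18) had limma adjusted p of 0.19. Rplp1, the member with most reads, had 18220 and 16528 RPM against 12860 and 11610 RPM in FR10. Without the 3 libraries that stood apart, none of which is in this comparison but all of which enter the shared spread, 37 members were called higher and 2 lower, with 10.1% of all genes called.

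A few members had lower values in both CsA libraries. Rpl7a had 2964 and 3005 RPM in FR10 and 1966 and 2137 RPM in CsA (-0.54), Rpl3 had 2920 and 2937 RPM and then 2162 and 2388 RPM (-0.37), and Rplp0, the scaffold of the P stalk, had 6342 and 5349 RPM and then 4932 and 4500 RPM (-0.31). Relative to the family the differences of Rpl7a (-0.78 ± 0.18), Rpl3 (-0.60 ± 0.16) and Rpl6 (-0.54 ± 0.15) had limma adjusted p of 0.056 to 0.071, where 0.847% of all genes were called, 0.0209% as higher and 0.826% as lower. Centring on the summed instead of the median member called 4 members lower, these 3 among them (-0.86, -0.69 and -0.62), with 2.77% of all genes called lower and 0.0314% higher. Of the other lists, none of 22 translation genes, 31 biogenesis genes, 13 RNA polymerase I genes or 76 mitochondrial ribosomal protein genes was called, with medians of -0.14, -0.26, -0.49 and 0.00.

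With FGF10 no member was called against FR10, and with FGF2 a few were higher. With FGF10 the share was 1.06 times that of FR10, limma called 0 members and 0% of all genes, and limma-voom called 0. The median difference was 0.10 over members and -0.08 over all genes, and the smallest p belonged to Rps14 (0.29 ± 0.20), Rps18 (0.22 ± 0.16) and Rps23 (0.24 ± 0.19), each with a limma adjusted p of 0.99. With FGF2 the share was 1.297 times that of FR10, and 4 members were called higher and none lower, where 8.84% of all genes were called, 1.37% as higher and 7.47% as lower. Rpl27a had 5544 and 5354 RPM in FR10 and 8272 and 9855 RPM in FGF2 (0.73 ± 0.16, limma adjusted p = 0.019). Rps23 went from 4471 and 5466 RPM to 7810 and 8757 RPM (0.74 ± 0.19), Rpl35 from 1910 and 1674 RPM to 2572 and 3251 RPM (0.69 ± 0.21) and Rpl12 from 4528 and 5669 RPM to 7857 and 8445 RPM (0.68 ± 0.20), with limma adjusted p of 0.027 to 0.047. In all 4 genes the groups did not overlap. The median difference was 0.39 over members and -0.33 over all genes, and 57 members were higher in both FGF2 libraries, as were 15.2% of all genes. Relative to the family only Rpl27a was called with FGF2 (0.46), where 17.2% of all genes were called, 0.764% as higher and 16.4% as lower.

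The FGF2 calls depended on single libraries and on the model. They went to 0 without d4c7 FR10 replicate 1, d4c7 FR10 replicate 2 or d4c7 FGF2 replicate 2, where 0.0523%, 1.58% and 0.784% of all genes were called. They went to 13, all higher, without d4c7 FGF2 replicate 1, where 18% of all genes were called and 2.43% as higher. Limma-voom called 12, all higher, with 7.71% of all genes called and 1.22% as higher. A fit of these 4 libraries alone called 0 members and 0% of all genes, and leaving out the 3 libraries that stood apart, of which 1 is in this comparison, called 17 with 11.4% of all genes. Fau, a fusion gene for Rps30, and Rpl36al were also called higher with FGF2 (0.91 ± 0.22 and 0.86 ± 0.22). Of 17 regulators, 5 were called lower, among them Rheb (-1.18 ± 0.18), Mycn (-1.26 ± 0.23) and Mtor (-0.80 ± 0.20), and Eif4ebp1 was called higher (0.66 ± 0.19). The 3 d4c7 comparisons share their FR10 libraries, so their values are set side by side and not compared.

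In cultured E9.5 germ cells no difference with cyclosporin A could be told from the replicate spread. The share was 30.3% and 40.01% with CsA and 31.4% and 34.0% with FR10, so the groups overlapped, and the ratio of 1.08 (log2 0.11) became -0.11 on the log2 scale without replicate 2 of E9.5c5 CsA. Limma called 0 members and 0% of all genes, and limma-voom called 0 members. The median difference was 0.07 over members and -0.11 over all genes. Rps27a, a ubiquitin fusion gene, had 4859 and 3788 RPM with FR10 and 5355 and 6166 RPM with CsA (0.42 ± 0.17, limma adjusted p = 0.60), and Rpl10 (0.48 ± 0.20) and Rplp0 (0.42 ± 0.21) followed with overlapping groups. The difference of the CsA effect between E9.5c5 and d4c7 was tested as an interaction: 0 members and 0% of all genes were called, and 8 members, and 616 of all genes, had an unadjusted p under 0.05.

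Between the 2 sources of cultured germ cells, embryo and PGCLC, the share with FR10 was 1.22 times as high in E9.5c5 as in d4c7, and 1 member was called, where 0.0418% of all genes were, 0.0314% as higher and 0.0105% as lower. Relative to the family 0 members and 0.0209% of all genes were called. Rpl29, a large-subunit protein that also binds heparin, had 1236 and 1306 RPM in d4c7 FR10 and 2297 and 2655 RPM in E9.5c5 FR10 (0.96 ± 0.16, limma adjusted p = 0.043). The call was lost without either d4c7 FR10 library or E9.5c5 FR10 replicate 2 (limma adjusted p = 0.20 to 0.71), and under median-ratio scaling the difference was 1.14 (limma adjusted p = 0.078). Rps4x, the X-linked small-subunit protein that escapes X inactivation in humans, was at 4450 and 4949 RPM in d4c7 FR10 and 8454 and 10378 RPM in E9.5c5 FR10 (1.00 ± 0.22, limma adjusted p = 0.11). Without the 3 libraries that stood apart it was called (0.85, limma adjusted p = 0.0040). Both genes were higher in all 4 E9.5c5 libraries than in all 14 others, with 7809 to 13740 RPM against 4325 to 6439 RPM for Rps4x and 2229 to 3002 RPM against 1153 to 1676 RPM for Rpl29. Rps20 had the next smallest p (0.57 ± 0.17, limma adjusted p = 0.20). Of the 4 X-linked members, Rpl39 (0.88), Rpl36a (0.78) and Rpl10 (0.13) were also above 0 without being called, with a median of 0.83 against 0.33 over all members and -0.20 over all genes. In 55 members both E9.5c5 FR10 libraries were above both d4c7 FR10 libraries, as were 13.9% of all genes.

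Members differed in how far they followed the family. Measured as log2 against each library's median member, the widest ranges of group means were those of Rps29 (1.82), Rpl38 (1.82), Rps28 (1.21), Rps23 (1.14) and Rps12 (1.14). The SD between replicates on this scale was 0.50 for Rps29, 0.51 for Rpl38 and 0.54 for Rps28. It was 0.15 for Rps23 and 0.13 for Rps12. A range over means of 2 libraries widens with that spread, so the first 3 ranges are less certain. Rps29, Rpl38 and Rps28 are small proteins and were highest in ESC or EpiLC. Rps29 had 856 to 1054 RPM in the 4 ESC and EpiLC libraries, 278 and 795 RPM in d4 PGCLC and 237 to 403 RPM in the 8 d4c7 libraries. Rps12 and Rps23 were lowest in d4 PGCLC and highest in d4c7 FGF2. Rpl21 kept closest to the family, with a range of 0.22. Rpsa, the laminin receptor relative, was lowest in d4 PGCLC (3095 and 3280 RPM) and highest in replicate 2 of d4c7 FGF2, E9.5c5 FR10 and E9.5c5 CsA (9691 to 10350 RPM). Rplp0 was highest in ESC and EpiLC (7184 to 7528 RPM) and lowest in E9.5c5 FR10 (4570 and 3581 RPM). Rpl22, whose paralog Rpl22l1 it is known to repress, had 2572 to 3034 RPM in ESC and EpiLC and 1227 to 1811 RPM in d4 PGCLC, d4c7 FR10 and E9.5c5. Rps6, the substrate of S6 kinase, had only 414 to 920 RPM in any library.

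The length of the coding sequence ordered the members in most comparisons, an axis chosen after the values were seen. From EpiLC to d4 PGCLC the 25 members with under 400 coding nucleotides had a median difference of -0.79 and the 21 with over 600 one of -0.23, and Spearman's rho between length and difference over the 76 members was 0.66. With CsA against FR10 the medians were 0.48 and -0.02 and rho was -0.70. Among 336 other genes with a mean of 300 RPM or more, rho was 0.31 and -0.49 in the same comparisons. For E9.5c5 CsA against FR10 it was 0.55 over the members and -0.30 over the other genes. Replicates of one group also differed by length, with either sign. Spearman's correlation between length and the difference of replicate 2 from replicate 1 was -0.85 in EpiLC, -0.77 in d4 PGCLC, -0.56 in E9.5c5 CsA, -0.51 in d4c7 CsA, -0.45 in E9.5c5 FR10 and -0.29 in d4c7 FGF2, and it was 0.47 in d4c7 FGF10, 0.46 in ESC and 0.14 in d4c7 FR10. Over the other 336 genes it was -0.37 in EpiLC, -0.12 in d4 PGCLC and 0.06 in d4c7 CsA. These rho values describe genes that share libraries and are given without p. The summed short members had 0.499 and 0.719 times the reads of the summed long members in d4 PGCLC, 0.727 and 0.661 in d4c7 FR10, 0.931 and 0.984 in d4c7 CsA, and 0.833 and 0.964 in EpiLC. The d4 PGCLC and EpiLC libraries, and those of CsA and FR10, did not overlap in that ratio, and the part of library preparation in it was not tested. Rps12 and Rps24 have 396 and 399 coding nucleotides, and the Rps12 and Rps24 values of the d4 PGCLC replicates lay close together. Over all 25 short members the median difference of d4 PGCLC replicate 2 from replicate 1 was 0.50. The part of length in the values of these 2 genes was not tested.

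**Figure D5:**
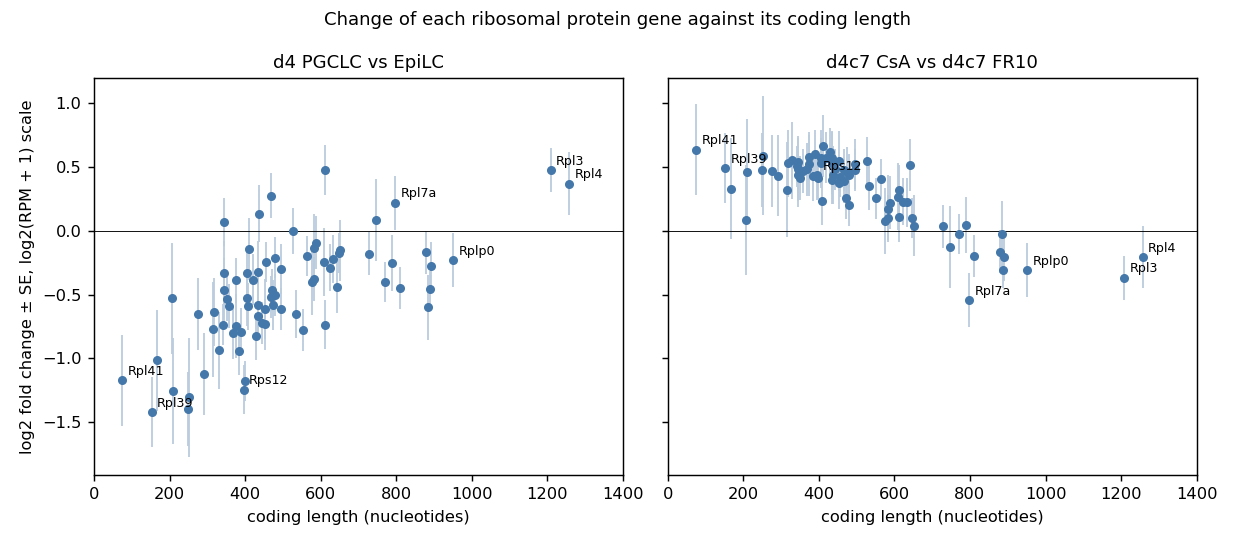
Log2 difference of each member with its SE (y axis, log2(RPM + 1) scale) against its coding length in nucleotides (x axis), for d4 PGCLC against EpiLC and for d4c7 CsA against d4c7 FR10. Short genes lie lowest on the left panel (median -0.79 under 400 nucleotides) and highest on the right panel (median 0.48), and the longest, Rpl3 and Rpl4, lie above 0 on the left and below 0 on the right.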

How the data were processed

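SC3-seq libraries from 1 ng of RNA were sequenced for 18 samples, and the authors deposited RPM values per gene (reads scaled to a common total) for each, without length correction; per the submitters' processing notes cutadapt 1.3, TopHat 1.4.1, Cufflinks 2.2.0 and mm10 were used, and the annotation is not given in the sources used here. Groups were taken from the sample labels. Depth was inferred from the step between low RPM values (tolerance 0.02 of a step), so it is an estimate, and counting floors cover counting error only. Differences were tested with limma 3.58.1 (R 4.3.3) on log2(RPM + 1) over genes with at least 10 RPM in 2 libraries, one mean per group, 9 residual degrees of freedom and Benjamini-Hochberg adjustment at 0.05. A second fit subtracted each library's median member. The scripts were tested on simulated data. The members, gene lists and the 3 libraries left out in an alternative were chosen with earlier results of these data known. Named members were, per comparison, up to 6 called in each direction with the largest change and no overlap, or the 3 smallest p; the 4 highest, 4 lowest and 5 most variable; and a fixed panel. Other named members were chosen after their values were seen. Coding lengths and pseudogene names came from GENCODE M21, and gene positions and start sites from RefSeq. Pseudocounts, filters, scaling, a voom model on inferred reads, a replicate block and left-out libraries were tried as alternatives. A few single genes are not reported here by name; they remain in the counts, sums and medians.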

Additional observations from a re-analysis of the deposited data

Results flagged for a closer look

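Rpl6, a large-subunit protein, had RPM differences of opposite sign with cyclosporin A in the 2 kinds of culture, but not when measured against the family. In d4c7 both CsA libraries (2143 and 2299 RPM) lay below both FR10 libraries (2833 and 2649 RPM), and in E9.5c5 both CsA libraries (2787 and 2808 RPM) lay above both FR10 libraries (2510 and 2602 RPM). The difference of the effects was 0.433 ± 0.20 (SE) on the log2 scale, with an unadjusted p of 0.047 and a limma adjusted p of 0.77, so it did not pass the threshold. As log2 against each library's median member, the group means of Rpl6 were -0.22 with FR10 and -0.76 with CsA in d4c7. In E9.5c5 they were -0.49 with FR10 and -0.51 with CsA, so on that scale Rpl6 was not higher with CsA there.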

How the results depend on the processing

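Counts of members called moved by over 1.5 times under these alternatives, and the share of all genes called by the same fit moved too. Median-ratio scaling gave 53 for d4 PGCLC against EpiLC, 46 against ESC, 13 for FGF2 and 0 for E9.5c5 FR10 against d4c7 FR10 (all genes: 36.1%, 30.2%, 5.69% and 0.0209%). Fitting only the 2 groups compared gave 15 for EpiLC against ESC, 41 for d4 PGCLC against ESC, 0 for FGF2 and 0 for E9.5c5 FR10 (33.3%, 54.9%, 0% and 0%). Leaving out the 3 libraries that stood apart gave 3 for EpiLC against ESC, 56 and 53 for d4 PGCLC against EpiLC and ESC, 28 for d4c7 FR10 against d4 PGCLC, 39 for CsA and 17 for FGF2 in d4c7, and 2 for E9.5c5 FR10 (29.5%, 55.5%, 51.1%, 31%, 10.1%, 11.4% and 0.324%). Without a filter the counts were 23 for d4 PGCLC against EpiLC and 1 for FGF2 (21.2% and 1.97%). For FGF2 a pseudocount of 0.1 gave 2, one of 10 gave 8, a filter at 50 RPM 10, a total without the members 7 (E9.5c5 FR10: 0) and limma-voom 12 (7.21%, 10.2%, 12.3%, 6.19% and 7.71%). Leaving out each replicate in turn gave 10 to 26 for d4 PGCLC against EpiLC, 7 to 21 against ESC, 4 to 6 for d4c7 FR10, 0 to 13 for FGF2, 0 to 1 for E9.5c5 CsA and 0 to 2 for E9.5c5 FR10 (24.4% to 28.9%, 20.8% to 24.3%, 5.99% to 8.63%, 0.0523% to 18%, 0% to 6.84% and 0% to 2.71%). The cause was not tested.

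To look for pairing by replicate number, each gene's difference of replicate 1 from replicate 2 was correlated between the 2 groups of a comparison. The correlation of these differences was -0.03 to 0.10 in 7 comparisons. It was 0.13 for E9.5c5 FR10 against d4c7 FR10 and 0.34 for E9.5c5 CsA against FR10. No label says that a number marks a shared culture or batch, and 2 pairs cannot settle it. A replicate block gave 14 members for FGF2, with 12.2% of all genes called. Centring on the summed members gave 4 members relative to the family for CsA and 2 for FGF2 (2.8% and 22.2% of all genes). After median-ratio scaling the log2 ratios of the summed members were -0.77 and -0.73 for d4 PGCLC against EpiLC and ESC, 0.35 for d4c7 FR10 against d4 PGCLC, 0.55 (CsA), 0.16 (FGF10) and 0.69 (FGF2) against d4c7 FR10, and 0.48 for E9.5c5 FR10. The E9.5c5 CsA ratio was -0.11 without its replicate 2 and 0.29 without its replicate 1. Of the values of single named members, 507 kept their side of the threshold, 15 gained a call, 56 lost one and 0 reversed. A total without mitochondrially encoded genes was not run, because 0 such genes are listed.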

Other observations

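One pseudogene of the family separated the libraries. Rpl34-ps1, a processed copy of the large-subunit gene Rpl34, had 0.470 to 1.295 RPM in the 6 libraries of ESC, EpiLC and d4 PGCLC and 86.3 to 151 RPM in the 12 d4c7 and E9.5c5 libraries. The former are labelled C57BL/6 and the latter B6D2F1 or B6D2F1 x C57BL/6, and all of the latter were cultured, so the parts of strain and of culture cannot be told apart.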
